A study of Mus musculus with 16 samples.

Results

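The RNA of protrusions was compared with that of cell bodies in the Pkp4 cUTR line, across all 12900 RNAs of the deposited table. The line was chosen by its labels, and its 8 samples, 4 of protrusions (Ps) and 4 of cell bodies (CB), are 8 of the 16 samples of the table. The cells are NIH/3T3, an established line of mouse embryonic fibroblasts, that stably carry a lentiviral construct in which the Pkp4 3′UTR, a competing UTR (cUTR), stands behind the coding sequence of human β-globin (HBB). In both fractions the construct was induced with 1 μg/ml doxycycline for 3 days. The cells were serum-starved and plated for 2 h on membranes with 3.0 μm pores, lysophosphatidic acid (LPA) was added below for 1 h, and fixation was in 0.3% paraformaldehyde for 10 min. Protrusions that had passed through the pores were scraped from 3 filters per sample and cell bodies left above from 1. The HBB line, which carries the β-globin 3′UTR in place of that of Pkp4 and was otherwise handled alike, provides the other 8 samples. It was used for the shared estimate of spread, for values beside single RNAs and for one comparison at the end. The labels do not say whether the cells of a line came from a single clone. Nothing in the labels says from which cultures the 4 samples of a fraction came, so the p-values measure the spread between these samples.

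Fibroblasts move by extending actin-rich protrusions, and many mRNAs are carried into them along microtubules, often through sequences in their 3′UTR. mRNAs translated by free ribosomes can spread or be carried through the cytoplasm. mRNAs of secreted and membrane proteins are tethered to the endoplasmic reticulum (ER) through the growing protein chain, which begins with a hydrophobic signal sequence or a membrane-spanning stretch. Most of the ER lies around the nucleus, which itself keeps some long non-coding RNAs and the small RNAs that process other RNAs. A cell body therefore holds the nucleus and most of the ER, while a protrusion holds no nucleus.

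Between 18660287 and 27125881 reads per sample of the line were counted on these RNAs, and a level of 3 reads, taken as the smallest detectable, lay between 0.102 and 0.176 CPM (reads per 1000000 of a scaled library), and this limit includes the error of counting alone. Levels are the deposited log2 CPM, in which 1 unit is a doubling, and are given in the order of replicates 1 to 4 of each fraction. log2(FC) is the difference in log2 CPM of protrusions over cell bodies from limma-voom. In such bulk samples fewer cells of a type and less RNA per cell cannot be told apart, and levels are relative to all RNA of the fraction. On the first principal component of the 8 samples, which held 76.4% of the variance over 10154 RNAs, protrusions scored 18.3 to 38 and cell bodies −37 to −10.6. The cell bodies were spread along it, at −23.7, −35.2, −37 and −10.6, with replicate 4 nearest the protrusions, and values without that replicate are given for the main counts and the leading groups. No list median changed sign without it. Of 8 fibroblast markers 7 were listed, with a summed level of 21124 to 22525 CPM in protrusions and 25905 to 31485 CPM in cell bodies. Of 4 haematopoietic and 3 endothelial markers 2 each were listed, at summed levels of at most 7.49 and 1.17 CPM. Of 4 epithelial markers 2 were listed at 215 to 275 CPM, nearly all from the keratin Krt14, and of 3 muscle markers only Des was listed, at 34.18 to 41.96 CPM in protrusions and 20.5 to 24.6 CPM in cell bodies.

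In protrusions 629 of 12900 RNAs (4.88%) were enriched and 368 (2.85%) were depleted, called by limma at a fold change above 2 in either direction and an adjusted p (Benjamini-Hochberg) under 0.05. At the adjusted p alone, 3633 RNAs (28.2%) were higher and 3679 (28.5%) lower in protrusions, and members of gene groups are called higher or lower by this rule. In 2916 RNAs (22.6%) all 4 protrusion samples lay above all 4 cell-body samples, and in 2866 (22.2%) all lay below. The median log2(FC) was 1.196 among the enriched and −1.203 among the depleted RNAs, against 0.01 over all RNAs. Without replicate 4 of the cell bodies, 929 RNAs were enriched and 481 depleted, and 3863 were higher and 3893 lower. The deposited values scale protrusion libraries to 0.828 to 0.972 times their reads and cell-body libraries to 1.07 to 1.1 times. Scaled to the total reads in place of this, the median of all RNAs was −0.25, with 236 RNAs enriched and 1035 depleted, and with 1797 higher and 5867 lower at the adjusted p. List medians and counts are therefore best read against those of all RNAs, and the numbers of higher and lower members under that scaling are given in parentheses. Low levels took much of both groups, since 395 of the enriched and 228 of the depleted RNAs had a mean log2 CPM under 3.

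**Figure D1:**
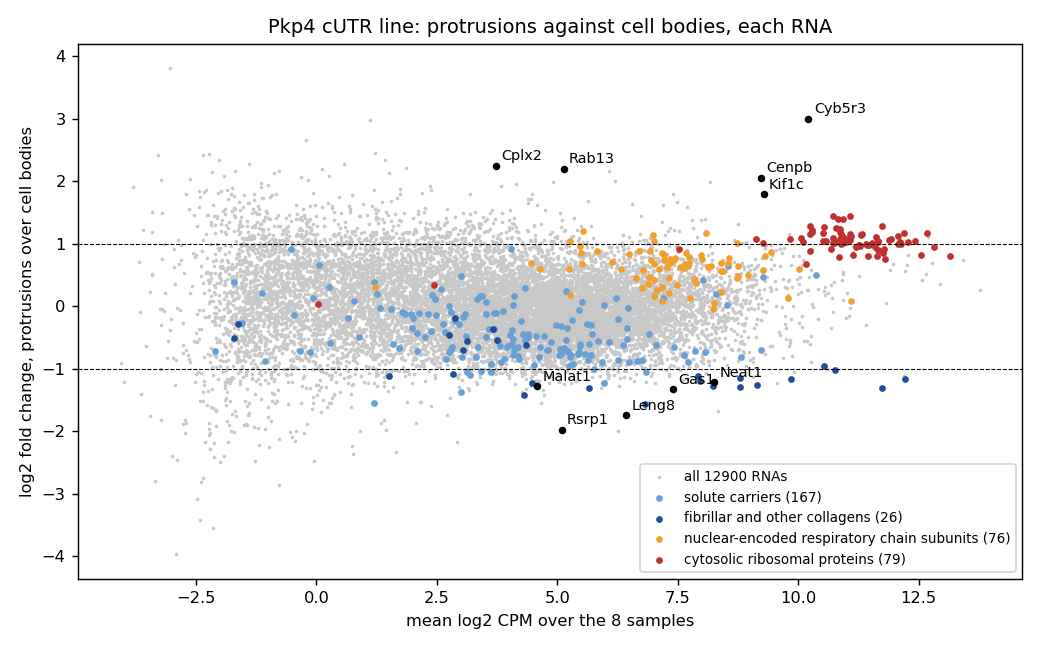
Each point is an RNA of the Pkp4 cUTR line, with its mean log2 CPM over the 8 samples on the horizontal axis and its log2(FC) of protrusions over cell bodies on the vertical axis; dashed lines mark 2-fold. The 79 ribosomal protein mRNAs (red) lie mostly at high level around a log2(FC) of 1, the 76 respiratory chain mRNAs (orange) below them, the 26 collagen mRNAs (dark blue) under 0 and most of the 167 solute carriers (light blue) under 0, with some named RNAs in black.

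The highest enrichment among RNAs with a mean log2 CPM of at least 3 was that of Cyb5r3, which encodes a cytochrome b5 reductase anchored in membranes (chromosome 15, 83153494 to 83172592 of GRCm38, as for all positions). Its level was 11.99, 11.65, 11.78 and 11.44 log2 CPM in protrusions and 8.86, 8.81, 8.60 and 8.56 in cell bodies (log2(FC) 3.01, standard error 0.13, adjusted p = 8e-11). Every protrusion sample was more than 2 units above every cell-body sample. Cyb5r3 alone took 0.306% ± 0.0434 (SD, n = 4) of the protrusion reads and 0.0455% ± 0.00422 (SD, n = 4) of the cell-body reads. Rab13, a small GTPase of membrane traffic (chromosome 3, 90213695 to 90226385), was at 6.28, 6.13, 6.49 and 6.01 log2 CPM in protrusions and 4.22, 3.85, 3.87 and 4.17 in cell bodies (log2(FC) 2.20, standard error 0.13, adjusted p = 3.1e-09). Kif1c, a kinesin motor that carries cargo towards microtubule plus ends (chromosome 11, 70700548 to 70731964), was at 10.49, 10.02, 10.08 and 10.12 log2 CPM in protrusions and 8.42, 8.50, 8.50 and 8.10 in cell bodies (log2(FC) 1.80, standard error 0.13, adjusted p = 1.8e-08). The groups of both genes were clearly apart. Cenpb, which binds centromere DNA (chromosome 2, 131175182 to 131180067), was at 10.48, 10.18, 10.39 and 9.95 log2 CPM in protrusions and 8.29, 8.26, 8.11 and 8.08 in cell bodies (log2(FC) 2.06, standard error 0.12, adjusted p = 2.7e-09). Cplx2, a regulator of vesicle fusion, was far less abundant, at 5.08, 4.73, 4.90 and 4.69 log2 CPM in protrusions and 2.63, 2.70, 2.62 and 2.45 in cell bodies (log2(FC) 2.25, standard error 0.14, adjusted p = 3.1e-09), and its groups did not overlap either. With predicted genes, RIKEN symbols and mitochondrial RNAs left out, the other RNAs among the 12 highest were Sh3bgrl (1.99), the COP9 signalosome subunit Cops2 (1.96), the kinesin heavy chain Kif5b (1.93), Kank2 (1.81), the chaperone Hsp90aa1 (1.80), the exchange factor Net1 (1.79) and the septin Sept7 (1.72), with log2(FC) in parentheses. All 12 had non-overlapping groups, which the rule for naming them required. Of those left out, 5730409E04Rik, a protein-coding gene, had a log2(FC) of 2.16, between Rab13 and Cenpb, and both mitochondrial ribosomal RNAs, described with the mitochondrial RNAs, also lay in this range.

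Pkp4 itself, a plakophilin of cell junctions, cannot be read as an endogenous mRNA in this line, because reads from the 3′UTR of the construct count on the same gene. It was at 9.80, 9.14, 8.96 and 9.43 log2 CPM in protrusions and 8.82, 9.24, 9.32 and 8.26 in cell bodies, and the fractions overlapped (log2(FC) 0.42, standard error 0.20, adjusted p = 0.073). In the 8 HBB samples, which lack this UTR on the construct, Pkp4 was at 4.43 to 6.35 log2 CPM with a log2(FC) of 1.54. The difference in log2(FC), Pkp4 cUTR minus HBB, was −1.12 (standard error 0.28, unadjusted p = 0.000875 and adjusted p = 0.9997 from limma), which did not pass the adjustment over 12900 RNAs. Ddr2, a collagen receptor whose RNA the study imaged, had a log2(FC) of 1.02 and Apc one of 1.42, both enriched by more than 2-fold. The RNAs that the study used as diffuse controls had lower values, with 0.44 for Arpc3 of the actin-nucleating Arp2/3 complex and 0.25 for the GTPase Rhoa, both past the adjusted p, of which Rhoa turned to −0.01 when scaled to total reads. β-actin (Actb) had a log2(FC) of 0.10 (adjusted p = 0.23). It was at 11.03, 10.97, 11.04 and 10.84 log2 CPM in protrusions and 10.90, 10.90, 10.87 and 10.80 in cell bodies, and these overlapped.

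**Figure D2:**
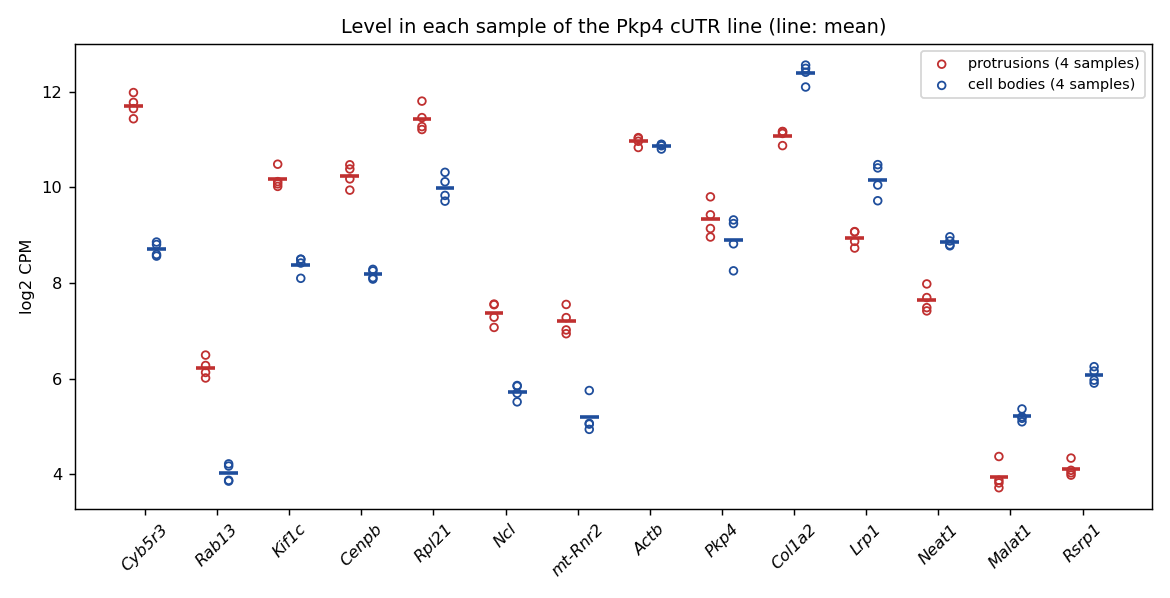
Level in log2 CPM of 14 RNAs in each of the 8 samples, with protrusions in red and cell bodies in blue and a line at each mean. Only Actb and Pkp4 have overlapping fractions; the RNAs from Cyb5r3 to mt-Rnr2 lie higher in protrusions, and those from Col1a2 to Rsrp1 lie higher in cell bodies.

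Of the 39 gene lists reported, cytosolic ribosomal proteins, the protein part of the ribosome, gained the most read share in protrusions. Together they took 26.1% ± 2.85 (SD, n = 4) of the reads in protrusions and 15.3% ± 1.97 (SD, n = 4) in cell bodies, with every protrusion sample above every cell-body sample. Of the 79 members, 77 were higher in protrusions at an adjusted p under 0.05 and 0 lower (77 and 0 scaled to total reads), with 52 past 2-fold, against the 28.2% and 4.88% of all RNAs. Their median log2(FC) was 1.04, with quartiles of 0.98 and 1.14. Without replicate 4 of the cell bodies the median was 1.14. Scaled to total reads it was 0.78, and under quantile normalization 0.36, in each case above the median of all RNAs. Rpl21, a protein of the large subunit (chromosome 5, 146832890 to 146837032), was at 11.27, 11.46, 11.81 and 11.21 log2 CPM in protrusions and 10.12, 9.83, 9.71 and 10.32 in cell bodies (log2(FC) 1.44, standard error 0.13, adjusted p = 1.1e-07). Rps24 of the small subunit was at 1.44, Rpl7 at 1.40 and Rpl26 at 1.40 on the log2(FC) scale, all with non-overlapping groups. Reads of these genes can be shared with their many processed pseudogenes.

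Ribosomal protein mRNAs typically begin with a C followed by a run of pyrimidines, the 5′ terminal oligopyrimidine motif through which their translation is controlled together. The 30 bases around the annotated RefSeq start (15 before and 15 after it, GRCm38.p6) were searched on the transcribed strand for the word CTTTC. The word was accepted at any position of the window, so a hit need not be the motif, which begins at the first base. Of the 79 members 58 had a start in the table, and 17 of these (29.3%) held the word, against 4.76% of all 27025 genes in the table. Among the 9065 tested RNAs with a start the share was 4.23%. Among RNAs enriched by more than 2-fold it was 10.1%, and among the depleted 3.95%. The enriched RNAs include 52 of the ribosomal protein mRNAs, so the 10.1% can in part count the same members again. The windows of the 5 members of highest log2(FC) that held it are given with the word in capitals, and annotated starts can differ from the starts used in these cells. With the first annotated base as 1, the word began at −5 in Rpl35, 8 in Rps26, 3 in Rpl28, 1 in Rpl38 and −11 in Rps15a.
Rpl35 (chr2:39005117-39005146, minus strand): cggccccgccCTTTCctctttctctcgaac
Rps26 (chr10:128626492-128626521, minus strand): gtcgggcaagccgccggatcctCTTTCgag
Rpl28 (chr7:4792950-4792979, plus strand): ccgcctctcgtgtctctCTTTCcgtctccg
Rpl38 (chr11:114668565-114668594, plus strand): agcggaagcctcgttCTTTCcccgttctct
Rps15a (chr7:118116133-118116162, minus strand): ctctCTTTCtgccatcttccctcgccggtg

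Most other parts of the translation machinery were also higher in protrusions. Among elongation and release factors with their partners 13 of 14 members were higher in protrusions and 0 lower (10 and 0 scaled to total reads), 2 and 0 of them by more than 2-fold. Their median was 0.69, and 0.26 under quantile normalization. They include Tpt1 (log2(FC) 1.18) and Naca (1.15), which binds nascent chains at the ribosome, and Eef1b2 (0.96). Eef1a1, which brings tRNA to the ribosome, took 1.28% of the protrusion reads and 0.916% of the cell-body reads. Of translation initiation factors 32 of 48 members were higher in protrusions and 3 lower (18 and 12 scaled to total reads), 6 and 2 of them by more than 2-fold (median 0.39). Eif2s2, a subunit of the factor that delivers the first tRNA, was at 5.29, 5.45, 5.43 and 5.39 log2 CPM in protrusions and 3.90, 3.47, 3.66 and 4.07 in cell bodies (log2(FC) 1.62, standard error 0.11, adjusted p = 1.1e-08). Eif3a (log2(FC) 1.54), Eif2a (1.27) and Eif3e (1.25) followed. The aminoacyl-tRNA synthetases, which charge tRNAs, were more evenly placed, with 11 of 23 higher and 4 lower (4 and 10 scaled to total reads), none past 2-fold, and a median of 0.15 that fell to −0.12 when scaled to total reads. The highest of these were Eprs (0.99) and Aimp1 (0.91). As a class the synthetases took less of the reads in protrusions, 0.295% ± 0.00708 (SD, n = 4), than in cell bodies, 0.323% ± 0.0019 (SD, n = 4), without overlap.

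Of nucleolar factors that build ribosomes, 31 of 55 members were higher in protrusions and 6 lower (18 and 18 scaled to total reads), 5 and 0 of them by more than 2-fold (median 0.28). Ncl, the abundant nucleolar protein nucleolin, was at 7.29, 7.55, 7.56 and 7.07 log2 CPM in protrusions and 5.86, 5.51, 5.69 and 5.84 in cell bodies (log2(FC) 1.64, standard error 0.11, adjusted p = 6.3e-09). Npm1, nucleophosmin, had a log2(FC) of 1.39, Gtpbp4 one of 1.26 and the helicase Ddx52 one of 1.14. Among the Sm and LSm ring proteins of splicing and decay, 16 of 21 members were higher in protrusions and 0 lower (9 and 2 scaled to total reads), 2 and 0 of them by more than 2-fold (median 0.48), led by Snrpe (1.07) and Snrpg (1.06). The hnRNPs and SR splicing factors were divided, with 13 of 32 higher and 6 lower (4 and 13 scaled to total reads). Hnrnpu was higher (1.27) and Hnrnpd lower (−0.68). The median of that list was 0.11 and turned to −0.15 when scaled to total reads.

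mRNAs made in the nucleus for mitochondrial proteins leaned towards protrusions, mostly by less than 2-fold. Of respiratory chain and ATP synthase subunits 66 of 76 members were higher in protrusions and 0 lower (56 and 5 scaled to total reads), 6 and 0 of them by more than 2-fold (median 0.64, without replicate 4 of the cell bodies 0.70). Uqcrb, a small subunit of complex III, was at 6.01, 6.16, 6.41 and 5.95 log2 CPM in protrusions and 5.07, 4.61, 4.67 and 5.32 in cell bodies (log2(FC) 1.22, standard error 0.13, adjusted p = 5.4e-07). Atp5e (1.18), Cox7b (1.14) and Ndufa5 (1.05) were next. As a class they took 2.07% ± 0.14 (SD, n = 4) of the reads in protrusions and 1.72% ± 0.154 (SD, n = 4) in cell bodies, without overlap. For mitochondrial ribosomal proteins 61 of 76 members were higher in protrusions and 0 lower (28 and 8 scaled to total reads), 2 and 0 of them by more than 2-fold (median 0.42), with Mrpl42 at 1.13 and Mrpl30 at 1.09.

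RNAs made inside mitochondria did not move together. Of 18 listed, 11 were higher and 1 lower (10 and 3 scaled to total reads), with a median of 1.02 and a range of −0.88 to 2.22. Only 9 had a mean log2 CPM of at least 3, with a median of 0.745, and the highest value came from a member at a mean of 1.86. Both ribosomal RNAs stood high. The larger, mt-Rnr2, was at 7.02, 7.55, 7.28 and 6.94 log2 CPM in protrusions and 5.06, 4.94, 5.05 and 5.75 in cell bodies (log2(FC) 2.00, standard error 0.16, adjusted p = 3.4e-08), with replicate 4 the highest of the cell bodies. The smaller, mt-Rnr1, had a log2(FC) of 1.99. The most abundant member, mt-Co1 of cytochrome oxidase, overlapped between fractions (log2(FC) 0.36, standard error 0.19, adjusted p = 0.12), while mt-Nd1 and mt-Cytb had values of 1.06 and 0.99. The only member lower at the adjusted p, mt-Nd5, was at 8.04, 7.61, 7.45 and 7.96 log2 CPM in protrusions and 7.80, 8.49, 8.38 and 9.14 in cell bodies (log2(FC) −0.70, standard error 0.23, adjusted p = 0.015), and these overlapped. It was named after its value was seen, as was mt-Co1. The class took 0.957% to 1.76% of the reads of protrusion samples and 0.921% to 1.32% of cell-body samples, which overlap.

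For protein turnover and folding the shifts were smaller. Of proteasome subunits 26 of 36 members were higher in protrusions and 0 lower (9 and 4 scaled to total reads), 1 and 0 of them by more than 2-fold (median 0.35), and the member past 2-fold was Psmc6 (1.34). The ubiquitin-conjugating enzymes had 14 of 30 higher and 3 lower (3 and 10 scaled to total reads), and their median was 0.24, or −0.03 on that scale, with Ube2e1 at 0.63 and Ube2o at −0.53. Of the COP9 signalosome, which trims the ubiquitin-like Nedd8 from ligases, 5 of 9 were higher and 1 lower (5 and 3 scaled to total reads), and Cops2 stood far above Cops6 (0.55) and Cops5 (0.55). Cops2 was at 5.01, 5.31, 5.17 and 5.00 log2 CPM in protrusions and 3.17, 2.81, 3.15 and 3.51 in cell bodies (log2(FC) 1.96, standard error 0.11, adjusted p = 1.8e-09). For cytosolic chaperones 25 of 33 members were higher in protrusions and 2 lower (17 and 4 scaled to total reads), 3 and 0 of them by more than 2-fold (median 0.43). Hsp90aa1, the inducible Hsp90, was at 5.13, 5.48, 5.48 and 5.37 log2 CPM in protrusions and 3.50, 3.23, 3.56 and 3.97 in cell bodies (log2(FC) 1.80, standard error 0.13, adjusted p = 1.1e-08), with no overlap, and Hspa4l (1.04) and the prefoldin subunit Pfdn5 (1.02) were just past 2-fold.

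**Figure D3:**
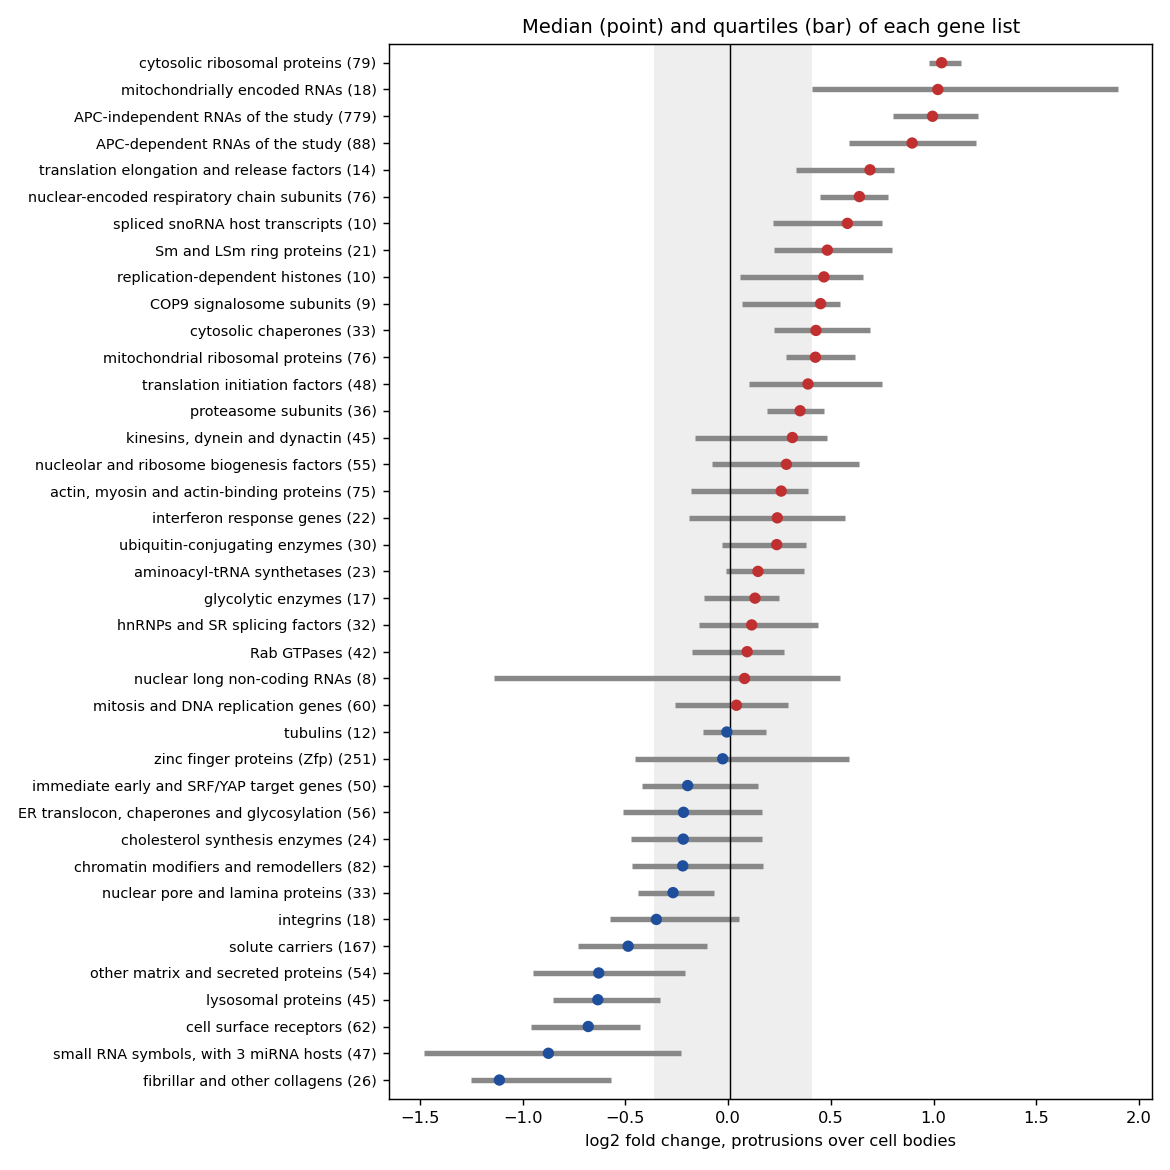
Median log2(FC), protrusions over cell bodies (point, red above 0 and blue below) and quartiles (grey bar) for 39 gene lists, with the number of members tested in parentheses. The shaded band and line give the quartiles and median of all 12900 RNAs; ribosomal proteins have the highest median, at 1.04, and collagens the lowest, at −1.11.

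RNAs kept in the cell body were above all those of the secretory route, whose proteins enter the ER. Collagens, the fibre proteins of the extracellular matrix, had the lowest median of all lists, −1.11 (−1.21 without replicate 4 of the cell bodies). Of 26, 22 were lower in protrusions and 16 of them by more than 2-fold, against the 28.5% and 2.85% of all RNAs, and none was higher (0 and 24 scaled to total reads). They took 0.907% ± 0.143 (SD, n = 4) of the reads in protrusions and 2.45% ± 0.391 (SD, n = 4) in cell bodies, with no overlap between fractions. Col1a2, a chain of type I collagen (chromosome 6, 4504814 to 4541544), was at 11.17, 11.13, 10.88 and 11.17 log2 CPM in protrusions and 12.41, 12.56, 12.49 and 12.10 in cell bodies (log2(FC) −1.30, standard error 0.11, adjusted p = 6.6e-08). Col4a5 of basement membranes was at 6.02, 6.12, 5.58 and 6.45 log2 CPM in protrusions and 7.51, 7.84, 7.81 and 7.26 in cell bodies (log2(FC) −1.56, standard error 0.16, adjusted p = 4.8e-07). In both genes replicate 4 was the lowest of the cell bodies. Col11a2 (−1.41) and Col4a6 (−1.30) were as low. The largest losses of read share in protrusions were those of Col1a1, from 0.787% ± 0.147 to 0.291% ± 0.045 (SD, n = 4), and of fibronectin (Fn1), from 0.76% ± 0.162 to 0.291% ± 0.0502 (SD, n = 4).

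Other secreted and membrane proteins followed. Of the other matrix and secreted proteins 4 of 54 members were higher in protrusions and 38 lower (1 and 42 scaled to total reads), 1 and 10 of them by more than 2-fold (median −0.63), with the laminins Lamb1 (−1.23) and Lamb2 (−1.18) and the proteoglycans Agrn (−1.19) and Hspg2 (−1.13) lowest among the better measured. Of cell surface receptors 5 of 62 members were higher in protrusions and 47 lower (2 and 52 scaled to total reads), 1 and 11 of them by more than 2-fold (median −0.68). Lrp1, an endocytic receptor, was at 9.07, 8.87, 8.73 and 9.08 log2 CPM in protrusions and 10.05, 10.41, 10.48 and 9.72 in cell bodies (log2(FC) −1.23, standard error 0.14, adjusted p = 1.7e-06), and Plxna3 (−1.34), Fzd7 (−1.30) and Notch1 (−1.20) were also depleted. Among integrins, the receptors for the matrix, 1 of 18 was higher and 10 lower (1 and 12 scaled to total reads), none past 2-fold, with Itga5 at −0.95 and Itga3 at −0.91. For lysosomal proteins 2 of 45 members were higher in protrusions and 37 lower (1 and 38 scaled to total reads), 0 and 1 of them by more than 2-fold (median −0.63). Man2b1, a lysosomal mannosidase, was at 5.39, 5.46, 5.59 and 5.50 log2 CPM in protrusions and 6.57, 6.64, 6.76 and 6.52 in cell bodies (log2(FC) −1.14, standard error 0.08, adjusted p = 8.4e-09), with no overlap. For solute carriers, which move small molecules through membranes, 12 of 167 members were higher in protrusions and 108 lower (4 and 128 scaled to total reads), 0 and 8 of them by more than 2-fold (median −0.49), with Slc23a2 at −1.22.

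Proteins of the ER itself were divided. Of 56 translocon subunits, chaperones and glycosylation enzymes, 13 were higher and 27 lower (10 and 36 scaled to total reads), with a median of −0.22. The chaperone Pdia4 (−1.10) and the ubiquitin ligase Syvn1 (−1.04) were depleted by more than 2-fold. Sec61g, a very small translocon subunit with a single membrane anchor at its end, was enriched, at 8.37, 8.50, 8.71 and 8.14 log2 CPM in protrusions and 7.55, 7.28, 7.15 and 7.65 in cell bodies (log2(FC) 1.02, standard error 0.12, adjusted p = 1.9e-06), and Sec62 had a log2(FC) of 0.99. For cholesterol synthesis and its regulators, 4 of 24 were higher and 10 lower (0 and 16 scaled to total reads) with a median of −0.22, and with Dhcr7 at −0.77 and Srebf2 at −0.74. The glycolytic enzymes, which are cytosolic, had 5 of 17 higher and none lower at the adjusted p (1 and 7 scaled to total reads), led by Gapdh (0.57). Their median of 0.13 changed sign when scaled to total reads (−0.13) and under quantile normalization (−0.09), which also turned Gapdh.

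**Figure D4:**
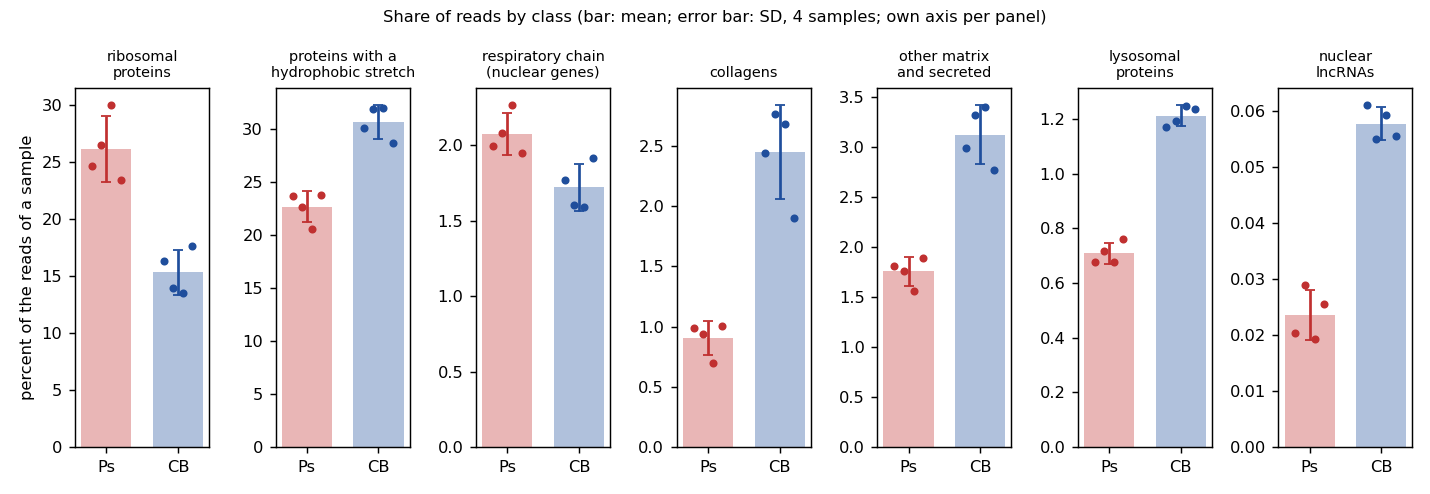
Percent of a sample's reads that fell on 7 classes of RNA, for protrusions (Ps) and cell bodies (CB); points are samples, bars means and error bars SD over 4 samples, and each panel has its own axis from 0. In none of the 7 do the fractions overlap; ribosomal proteins and the respiratory chain take more of the protrusion reads, and the other 5 classes less.

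The encoded protein was then read from the GENCODE vM21 transcript with the longest coding sequence, for the 11354 protein-coding RNAs that had one. A hydrophobic stretch, a window of 19 residues with a mean Kyte-Doolittle hydropathy of at least 1.6, marks a likely signal sequence or membrane span. Of mRNAs enriched by more than 2-fold 15.5% (74 of 478) encoded one, of those depleted 59.3% (166 of 280), and of all 32.6%. A stretch within 40 residues of the N-terminus, where signal sequences lie, was found in 5.23% of the enriched and 27.1% of the depleted mRNAs. The median log2(FC) was 0.07 for the 7655 mRNAs with no stretch. It was −0.15 for 1953 with up to 3 stretches away from the N-terminus and −0.33 for 1006 whose first lay near it. For the 740 with 4 or more it was −0.47, and 461 of these were lower and 51 higher at the adjusted p. mRNAs with a stretch took 22.7% ± 1.47 (SD, n = 4) of the reads in protrusions and 30.6% ± 1.58 (SD, n = 4) in cell bodies, with no overlap. The order of the 4 medians was the same without replicate 4 of the cell bodies, where they ran from 0.08 to −0.50.

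GC content and length also differed between the groups. The median GC content of the transcript was 42.8% among enriched, 54.7% among depleted and 50.9% among all protein-coding RNAs. The coding length was 1478, 2175 and 1389 bases. Across these 11354 RNAs, which share their libraries, the Spearman correlation with log2(FC) was −0.39 for GC content, −0.29 for coding length and −0.10 for 3′UTR length. With RNAs in 4 equal bins of GC content, in the lowest bin the median log2(FC) was 0.43 for mRNAs without and 0.16 for those with a stretch, and in the highest bin −0.12 and −0.41. mRNAs with a stretch thus had the lower median in each of the 4 bins of GC content, and likewise in each of 4 bins of coding length. The share of RNAs enriched by more than 2-fold was 11% in the lowest bin of GC and 0.916% in the highest, with ribosomal proteins left out 10.9% and 0.638%. By bin of coding length, from the shortest to the longest, this share was 5.53%, 2.63%, 3.32% and 5.36%. With ribosomal proteins left out it was 3.86%, 2.57%, 3.32% and 5.36%, so it did not fall steadily with length. The part of GC content or of length in the enrichment was not tested. Ribosomal protein mRNAs themselves had a median GC of 51.8%, near that of all, with a short coding length of 459 bases. The word GAAGAAG was in 12.5% of the 3′UTRs of enriched, 14.1% of depleted and 13.1% of all protein-coding RNAs, so this word did not set the groups apart.

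**Figure D5:**
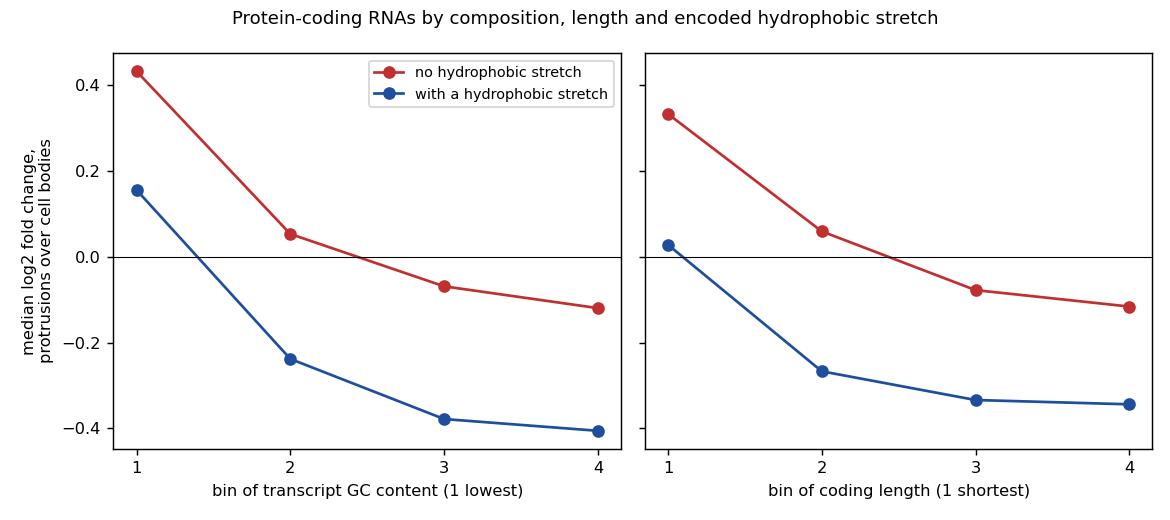
Median log2(FC), protrusions over cell bodies, for protein-coding RNAs by bin of GC content (4 bins of equal size) (left) and of coding length (right), for mRNAs without (red) and with (blue) an encoded hydrophobic stretch. The blue points lie below the red ones in every bin, and both fall from the first to the last bin, for GC from 0.43 to −0.12 without and from 0.16 to −0.41 with a stretch.

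mRNAs of the cytoskeleton, which shapes protrusions, were mixed. Of actin, myosins and actin-binding proteins 39 of 75 members were higher in protrusions and 11 lower (15 and 27 scaled to total reads), 4 and 0 of them by more than 2-fold. The median was 0.26, just under 0 when scaled to total reads and 0.12 under quantile normalization. Tmsb4x, the actin-monomer binder thymosin β4, was at 7.92, 8.19, 8.43 and 7.95 log2 CPM in protrusions and 7.02, 6.71, 6.62 and 7.29 in cell bodies (log2(FC) 1.22, standard error 0.13, adjusted p = 6.8e-07), and Cald1, the actin-binding caldesmon, had a log2(FC) of 1.12. Of kinesins, dynein and dynactin subunits 22 of 45 members were higher in protrusions and 9 lower (8 and 14 scaled to total reads), 5 and 1 of them by more than 2-fold (median 0.31). Beside Kif5b and Kif1c, the dynein light chains Dynll2 (1.60) and Dynlt3 (1.17) were past 2-fold. Dynll2 was at 8.71, 8.32, 8.54 and 8.35 log2 CPM in protrusions and 6.91, 6.92, 6.89 and 6.80 in cell bodies, with no overlap. Tubulins, the subunits of microtubules, had a median of −0.01 with 2 of 12 higher (0 and 8 scaled to total reads), Tubb2b (0.34) and Tuba1b (0.21), and the last turned to −0.05 when scaled to total reads. As a class tubulins took 0.202% ± 0.00879 (SD, n = 4) of the reads in protrusions and 0.239% ± 0.0137 (SD, n = 4) in cell bodies, without overlap. Rab13 was the only member past 2-fold among Rab GTPases, of which 13 of 42 were higher and 7 lower (3 and 19 scaled to total reads). Their median of 0.09 turned to −0.17 on that scale, and they took 0.278% ± 0.022 (SD, n = 4) of the reads in protrusions and 0.312% ± 0.00948 (SD, n = 4) in cell bodies, without overlap. Among members called at the adjusted p with a mean log2 CPM of at least 3, Rab36 (−0.55) and Rab11a (0.48) were next in size. Net1, a nucleotide exchange factor that activates small GTPases, was at 4.28, 3.93, 3.90 and 4.20 log2 CPM in protrusions and 2.28, 2.35, 2.30 and 2.22 in cell bodies (log2(FC) 1.79, standard error 0.16, adjusted p = 1e-07).

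mRNAs of nuclear proteins were called in both directions. Of chromatin modifiers 17 of 82 were higher and 39 lower (6 and 52 scaled to total reads), with a median of −0.22 and with the remodeller Smarca5 at 1.30 and the demethylating enzyme Tet3 at −1.03. Of zinc finger proteins with a Zfp symbol 71 of 251 were higher and 83 lower (43 and 116 scaled to total reads), with a median of −0.03 and quartiles of −0.45 and 0.59. The median of the 97 with a mean log2 CPM of at least 3 was −0.34, and the class took 0.341% ± 0.0301 (SD, n = 4) of the reads in protrusions and 0.467% ± 0.0289 (SD, n = 4) in cell bodies, without overlap. Nuclear pore and lamina proteins leaned to the cell body, with 2 of 33 higher and 18 lower (1 and 28 scaled to total reads) and a median of −0.27. The membrane-anchored Pom121 (−0.92) and Sun1 (−0.86) were lowest of the named members, and Tpr of the nuclear basket was at 1.08. Immediate early and SRF or YAP target genes had 7 of 50 higher and 17 lower (2 and 28 scaled to total reads) and a median of −0.20, with Dusp1 at −0.86 and Fosb at 0.94. Fosb was at 4.31, 5.54, 5.53 and 3.88 log2 CPM in protrusions and 3.94, 4.41, 3.71 and 3.39 in cell bodies, and these overlapped (adjusted p = 0.02 from limma). In the HBB line its log2(FC) was 0.04. For mitosis and DNA replication genes the numbers were 11 and 12 of 60 (6 and 26 scaled to total reads), and their median of 0.04 turned to −0.22 on that scale. Of replication-dependent histones 4 of 10 were higher and 0 lower (2 and 1 scaled to total reads), with a median of 0.47. Their median level was only 0.112 log2 CPM, and their share of reads overlapped between protrusions (0.00413%) and cell bodies (0.00416%). Of interferon response genes 9 of 22 were higher and 4 lower (5 and 8 scaled to total reads). Their median of 0.24 turned to −0.02 on that scale, and they took 0.0502% ± 0.00158 (SD, n = 4) of the reads in protrusions and 0.0606% ± 0.00294 (SD, n = 4) in cell bodies, without overlap. Among the last, the peptide transporter Tap1 was at −0.96 and Stat2 at −0.77.

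Long non-coding RNAs of the nucleus were divided. Malat1, a nuclear speckle RNA (chromosome 19, 5795690 to 5802672), was at 3.87, 4.37, 3.72 and 3.82 log2 CPM in protrusions and 5.20, 5.10, 5.36 and 5.17 in cell bodies (log2(FC) −1.27, standard error 0.20, adjusted p = 4e-05). Neat1, the scaffold of paraspeckles (chromosome 19, 5824708 to 5845478), was at 7.42, 7.98, 7.49 and 7.70 log2 CPM in protrusions and 8.97, 8.80, 8.88 and 8.78 in cell bodies (log2(FC) −1.21, standard error 0.16, adjusted p = 4.6e-06). In both, every protrusion sample lay below every cell-body sample, and the nuclear markers Malat1, Neat1 and Kcnq1ot1 summed to 186 to 275 CPM in protrusions and 476 to 538 CPM in cell bodies. Of the 8 members of the list tested 4 were higher and 3 lower (1 and 3 scaled to total reads), and the median of 0.08 turned to −0.18 on that scale. Tug1 (0.58) and Pvt1 (0.41) were higher in protrusions. Spliced host transcripts of small nucleolar RNAs (snoRNAs) leaned to protrusions, with 7 of 10 higher and 1 lower (5 and 1 scaled to total reads), the last being Snhg3 (−0.86). Gas5, the most abundant, was at 8.75, 8.81, 9.07 and 8.40 log2 CPM in protrusions and 7.46, 7.08, 7.24 and 7.66 in cell bodies (log2(FC) 1.40, standard error 0.14, adjusted p = 3.1e-07).

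Small RNAs went the other way, at low levels. Of 39 snoRNAs by biotype 27 were lower and 2 higher, with 21 depleted by more than 2-fold and a median log2(FC) of −1.06 (−0.95 without replicate 4 of the cell bodies). Their median level was −1.02 log2 CPM, only 2 had a mean of at least 1, and they took 0.00414% ± 0.000343 (SD, n = 4) of the reads in protrusions and 0.00568% ± 0.000586 (SD, n = 4) in cell bodies. Of 25 miRNA genes 10 were lower and 3 higher (median −0.56). In a wider list of 47 RNAs with symbols of small RNAs, which holds the longer miRNA hosts Mir22hg, Mir17hg and Mir143hg as well, 3 were higher and 27 lower (3 and 32 scaled to total reads). The median was −0.87, but among the 5 with a mean of at least 1, Mir22hg included, it was 0.17, and Snord104 (0.90) was higher in protrusions. The labels name a total RNA kit and the methods an mRNA kit under the same order number, so the capture of RNAs without a poly(A) tail is uncertain. Reads of small RNAs that lie in introns cannot be told apart from unspliced host transcripts.

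By annotated class, the 11360 protein-coding RNAs had a median of −0.03, with 478 enriched and 284 depleted by more than 2-fold. Processed pseudogenes, reverse-transcribed copies of mRNAs, had a median of 0.65 (0.99 without replicate 4 of the cell bodies), and 76 of 595 were enriched against 5 depleted. They share sequence with their parent mRNAs, and the 108 with the symbol of a ribosomal protein had a median of 0.90, so their reads may in part be those of the parents. Of 203 long intergenic RNAs 72 (35.5%) were higher and 17 (8.37%) lower (median 0.29). Of 237 antisense RNAs 62 (26.2%) were higher and 19 (8.02%) lower (median 0.27). Among all RNAs these shares were 28.2% and 28.5%, so the antisense share called higher lay just below that of all RNAs. Scaled to total reads the medians of long intergenic and antisense RNAs were 0.0255 and 0.00641. Their median levels were low, at −0.295 and −0.00532 log2 CPM. The long intergenic RNAs took less of the protrusion reads (0.221%) than of the cell-body reads (0.266%), without overlap, and the antisense shares overlapped.

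The lowest values among better measured RNAs were not all of the secretory route, and the RNA-binding Atxn2 lies outside it. The 3 lowest come first, without regard to route. PCDHGB6, a protocadherin symbol that matched no gene of the annotation, was at 5.93, 5.02, 3.95 and 6.10 log2 CPM in protrusions and 7.04, 7.71, 7.99 and 6.27 in cell bodies (log2(FC) −1.99, standard error 0.37, adjusted p = 0.0002), with the widest spread of the 12 lowest. Rsrp1, an arginine and serine rich protein (chromosome 4, 134923592 to 134927671), was at 3.98, 4.34, 4.03 and 4.08 log2 CPM in protrusions and 6.16, 5.91, 6.25 and 5.97 in cell bodies (log2(FC) −1.97, standard error 0.13, adjusted p = 5.4e-09). Leng8 was at 5.72, 5.49, 5.13 and 5.86 log2 CPM in protrusions and 7.34, 7.48, 7.59 and 6.76 in cell bodies (log2(FC) −1.74, standard error 0.17, adjusted p = 3e-07). The groups did not overlap in any of the 3. Ggcx (−1.41), an ER enzyme that carboxylates secreted proteins, the transporter Abcc10 (−1.37), the receptor Tnfrsf25 (−1.33), the membrane-anchored Gas1 (−1.32) and the RNA-binding ataxin Atxn2 (−1.31) complete the 12 with Col4a5, Col11a2, Plxna3 and Col1a2.

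The study divided protrusion RNAs by their need for the protein APC in another experiment, and both lists were chosen there for enrichment in protrusions, so their direction here is not independent evidence. Of 88 APC-dependent RNAs 64 were higher in protrusions of the Pkp4 cUTR line and 0 lower (53 and 1 scaled to total reads), with 33 past 2-fold (median 0.90). Of 779 APC-independent RNAs 569 were higher and 0 lower (502 and 1 scaled to total reads), with 336 past 2-fold (median 1.00). In the HBB line the medians were 1.08 and 1.03.

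The same comparison in the HBB line asked whether any of this was particular to the Pkp4 cUTR line. It called 559 RNAs enriched (4.33%) and 506 depleted (3.92%) at the same thresholds. Of the RNAs enriched in the Pkp4 cUTR line 59.9% were enriched in HBB cells, and 67.4% of those of HBB cells in the Pkp4 cUTR line. Across 10154 RNAs with a mean log2 CPM of at least 1, Pearson's r between the log2(FC) of the lines was 0.962, as a description across genes. The difference between the lines, tested by limma for each RNA, passed an adjusted p of 0.05 in 0 of 12900 RNAs (0%) and an unadjusted one in 300 (2.33%). No RNA was therefore shown to be enriched in the protrusions of the Pkp4 cUTR line alone. The study, at its own cutoffs on the difference and its p-value, reported a group of RNAs less enriched with the Pkp4 cUTR. That group overlapped in part with its APC-dependent RNAs, and its imaging found Ddr2 and Kank2 RNA less peripheral. In the present fit Ddr2 was not less enriched, with a log2(FC) of 1.02 in the Pkp4 cUTR and 0.98 in the HBB line (difference 0.04, unadjusted p = 0.76 from limma). Kank2 had 1.81 and 2.13 (difference −0.32, unadjusted p = 0.085 from limma). The medians in the Pkp4 cUTR and the HBB line were set side by side for ribosomal proteins (1.04 and 1.11), collagens (−1.11 and −1.21), lysosomal proteins (−0.63 and −0.63) and snoRNAs (−1.06 and −1.15). The largest median difference among the lists was that of the mitochondrially encoded RNAs, at −0.29 (Pkp4 cUTR minus HBB). Of the 88 APC-dependent RNAs 12 (13.6%) differed at an unadjusted p under 0.05, against the 2.33% of all RNAs, all 12 with a lower log2(FC) in the Pkp4 cUTR line, and the median difference was −0.19. None of the 12 passed the adjustment over all RNAs. Pkp4, which the paper names as APC-dependent, differed in this direction (−1.12, unadjusted p = 0.000875 from limma), and its reads include those of the construct. Of the 779 APC-independent RNAs 11 (1.41%) differed at the unadjusted p, with a median difference of −0.05.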

How the data were processed

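RNA of 8 samples of the Pkp4 cUTR line, and of 8 of the HBB line in the same fit, was measured by stranded paired-end RNA-Seq. Per the labels and the methods, the authors aligned reads to mm10 with STAR 2.4.2a on release 4 of the mouse GENCODE annotation, counted them with Rsubread and deposited limma-voom (limma 3.26.1) log2 CPM for 12900 RNAs. The methods state a cutoff of log2 CPM above 0.5 in at least 1 sample, which 11482 of the 12900 RNAs met in these 16 samples. The values are those of reads plus 0.5 over a library size times a factor, and the source of the scaling factors is not given in the sources used here. The table holds no columns of other samples.

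The reads were recovered from the deposited values (100% whole within 0.01) and fitted with limma-voom (limma 3.58.1, R 4.3.3), 1 mean per group and empirical Bayes moderated tests, two-sided, with Benjamini-Hochberg adjustment over 12900 RNAs. RNAs were called at an adjusted p under 0.05, with and without a fold change above 2. RNAs were named if they were among the 12 of highest or lowest log2(FC) called at 2-fold, with a mean log2 CPM of at least 3, no overlap of the fractions and no predicted gene, pseudogene or mitochondrial RNA; among up to 4 members of each list with the largest absolute log2(FC), the same minimum and an adjusted p under 0.05; or followed by the study, together with Malat1 and Neat1. The members, the 40 gene lists and this rule were chosen with earlier results of these data known. Lists are described by counts and medians, with no test of the list, and 1 of the 40 is not reported here. Positions, biotypes and transcripts came from GENCODE vM21 (GRCm38), where 12768 RNAs (99.0%) were found, 447 of them by an older symbol, and start windows from RefSeq (GRCm38.p6). Genes that overlap or share reads with a copy are uncertain.

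Alternatives changed the samples in the fit, the replicate block, the weights, the scaling, the pseudocount, the filter on low values, the thresholds and the samples left out.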

Additional observations from a re-analysis of the deposited data

Results flagged for a closer look

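In 446 groups of 4 samples, for the RNAs named by rule and the classes of RNA by share of reads, 16 groups (3.59%) held a sample whose distance from the nearest other, as a share of the range, was over Dixon's 95% critical value, where chance gives about 5%. Replicate 1 of the protrusions lay apart as the highest for mt-Nd1 (11.90 against 11.32 to 11.37), in log2 CPM against the other 3. Replicate 1 of the protrusions lay apart as the lowest for Hnrnpr (3.98 against 4.27 to 4.33), in log2 CPM against the other 3. Replicate 3 of the protrusions lay apart as the highest for Tpt1 (12.01 against 11.77 to 11.80), in log2 CPM against the other 3. Replicate 3 of the protrusions lay apart as the lowest for Col1a2 (10.88 against 11.13 to 11.17), Col4a6 (4.67 against 5.11 to 5.13) and Rab36 (3.51 against 3.71 to 3.72), in log2 CPM against the other 3. Replicate 4 of the protrusions lay apart as the highest for Tnfrsf25 (2.85 against 2.34 to 2.41), in log2 CPM against the other 3. Replicate 4 of the protrusions lay apart as the lowest for Cops5 (6.08 against 6.24 to 6.27) and Tubb2b (3.67 against 3.98 to 4.02), in log2 CPM against the other 3. Replicate 3 of the cell bodies lay apart as the lowest for Cops4 (5.82 against 5.98 to 6.01), in log2 CPM against the other 3. Replicate 4 of the cell bodies lay apart as the highest for mt-Rnr2 (5.75 against 4.94 to 5.06), mt-Rnr1 (7.52 against 7.03 to 7.07), unprocessed pseudogenes (0.00864% against 0.00352% to 0.00373%) and RNAs of rare biotypes (0.0371% against 0.028% to 0.0284%), in log2 CPM or percent of reads against the other 3. Replicate 4 of the cell bodies lay apart as the lowest for Lamb1 (5.15 against 5.53 to 5.55) and Nup155 (3.73 against 3.91 to 3.94), in log2 CPM against the other 3. Of the 7 such groups in the cell bodies, 6 had replicate 4 as the sample apart, the sample nearest the protrusions on the first principal component. Without this sample, mt-Rnr2 and mt-Rnr1 remained enriched by more than 2-fold, with log2(FC) of 2.18 and 2.11.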

How the results depend on the processing

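Of 36 counts of enriched or depleted RNAs under the alternatives 28 stayed within 1.5 times of the main count. The number of enriched and depleted RNAs moved beyond that when libraries were scaled to their totals (236 and 1035), with log2(CPM + 1), which compresses low levels (269 and 123), with only the 10160 RNAs of a mean log2 CPM of at least 1 (398 and 194) and with a fold threshold of 1.5 (1858 and 1577). At an unadjusted p under 0.05 in place of the adjusted one they were 654 and 377. Leaving out each of the 8 samples gave 501 to 929 enriched and 262 to 481 depleted RNAs, with the highest of both without replicate 4 of the cell bodies. Of the 629 enriched RNAs 607 were among the 929. The number of RNAs that differed between the lines at an adjusted p under 0.05 was 0 in all alternatives run, leaving out each sample included (0 to 0), with 215 to 473 RNAs at an unadjusted p under 0.05.

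With the replicate numbers within each line fitted as a block there were 600 enriched and 342 depleted RNAs. For samples of the same number, deviations from the fraction means correlated at −0.161 on average over the 4 numbers, against 0.0611 for different numbers, and 0 of 8 samples correlated best with its own number. By number these correlations were −0.0329, 0.00248, −0.362 and −0.25. No positive link between samples of the same number was seen, but this does not exclude that they were prepared together. The paired fit was not used for the results.

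Scaled to totals, all RNAs moved down together (median −0.25), and the medians of 9 lists changed sign, namely Rab GTPases (−0.17), mitosis and DNA replication genes (−0.22), nuclear long non-coding RNAs (−0.18), aminoacyl-tRNA synthetases (−0.12), ubiquitin-conjugating enzymes (−0.0265), hnRNPs and SR factors (−0.15), glycolytic enzymes (−0.13), actin and actin-binding proteins (−0.00393) and interferon response genes (−0.0225), as did Tuba1b (−0.0480) and Rhoa (−0.0135). Quantile normalization turned the glycolytic enzymes (−0.0859) and Gapdh (−0.16), and it and centring on the median turned lists within 0.03 of 0, tubulins and, by centring alone, zinc finger proteins. With RNAs of a mean log2 CPM of at least 1 alone, the median of RNAs with symbols of small RNAs was 0.17 over the 5 left. The cause was not tested. Of 2640 values of the 165 RNAs named by rule, 2593 kept their direction and side of the threshold, 39 lost and 5 gained significance and 3 reversed. RNAs near 3 reads cannot be shown to differ at this depth.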

Other observations

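A few RNAs outside the comparisons described so far were noted after their values were seen. Fth1, the heavy chain of the iron store ferritin, gained more read share in protrusions than any RNA but Rps12, from 0.488% ± 0.0388 to 0.882% ± 0.0891 (SD, n = 4). Its level was 13.28, 13.30, 13.49 and 12.92 log2 CPM in protrusions and 12.25, 12.08, 11.98 and 12.22 in cell bodies (log2(FC) 1.11, standard error 0.11, adjusted p = 4.1e-07 from limma). Vim, the intermediate filament protein vimentin, was at 12.82, 12.86, 13.08 and 12.92 log2 CPM in protrusions and 12.40, 12.32, 12.34 and 12.53 in cell bodies (log2(FC) 0.52, standard error 0.08, adjusted p = 3e-05 from limma), so that fibroblast markers did not share a direction. Rn7sk, a small nuclear RNA that holds back transcription elongation, was at 1.26, 2.03, 3.42 and 3.41 log2 CPM in protrusions and 0.37, 0.00, 0.80 and 2.03 in cell bodies (log2(FC) 1.74, standard error 0.50, adjusted p = 0.0062 from limma), with overlapping fractions and protrusion values spread over more than 2 units.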
